A study of Mus musculus with 38 samples.

Results

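The cytochrome P450 genes of drug, steroid and eicosanoid metabolism were followed in mouse liver through fasting, calorie restriction and a missed meal. Members were all genes of the deposited count table with a symbol of Cyp and a digit, leaving out the Cyp4a genes and Cyp51, Cyp7a1, Cyp7b1, Cyp8b1, Cyp27a1, Cyp2c70, Cyp26a1, Cyp26b1, Cyp2e1 and Cyp1a2. This gave 83 of 21954 genes, out of 101 with such a symbol. The choice went by symbol and not by a measured value, but it was made with earlier results of these data known. It is wider than drug metabolism, since it also holds steroid-forming enzymes such as Cyp11a1, Cyp17a1, Cyp19a1 and Cyp21a1, the vitamin D hydroxylases Cyp2r1 and Cyp27b1, and the pseudogene Cyp2d37-ps.

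All livers came from female wild-type C57BL/6 mice and were sequenced as polyadenylated RNA in 38 libraries of 13 groups. From mice with free access to food (AL) came 3, 2, 3 and 3 libraries for the hours 0, 6, 14 and 22, and from calorie-restricted mice (CR) 2, 3, 3 and 4. The fasted mice (F) gave 3 libraries for each of the hours 6, 14 and 22, and restricted mice at zeitgeber time 18 gave 3 libraries after feeding (CR_fed) and 3 after a missed meal (CR_mm). The labels do not name the event from which the hours count or say that replicates were separate animals, so each p-value measures the spread between these samples only. A name such as AL_22h 2 stands for the group and the labelled replicate number. The labelled ages rise from one sample to the next, from 5 to 44 months, so the ages of the groups are uncertain and were not used.

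P450 enzymes are haem proteins of the endoplasmic reticulum and mitochondria that insert an oxygen atom into their substrates with electrons passed on by partners such as Por, the P450 reductase. In liver, members of the Cyp1, Cyp2 and Cyp3 families oxidise drugs, toxins and steroids, and members of Cyp2c, Cyp2j and Cyp4 also hydroxylate or epoxidise fatty acids. Many are switched on by the receptors Nr1i3 (CAR), Nr1i2 (PXR) and Ahr, and in mice the levels of several, among them Cyp3a41a, Cyp3a44, Cyp2b9, Cyp2b13 and Cyp2d9, differ between the sexes under the control of growth hormone.

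Of the 83 members, 61 had enough reads to be tested, 17 had reads but were left out by the filter on low counts, and 5 had no read in any library (Cyp19a1, Cyp24a1, Cyp2j7, Cyp2j12 and Cyp2w1). No member left out by the filter reached a group mean above 0.443 CPM, the unit of counts scaled to the normalised library size, and 50 tested members reached at least 5 CPM in at least 1 group. Together the members took 1.23 to 2.40% of the counts of a library. Most lie in tandem clusters. On GRCm38, with coordinates from GENCODE vM21, 9 Cyp3a genes lie within chr5:137892932-146113287, 14 Cyp2c genes within chr19:39007019-44029208, 9 Cyp2d genes within chr15:82370527-82794294, 8 Cyp4f genes within chr17:32452723-32947402, 5 Cyp2b genes within chr7:25897620-26772630 and 4 Cyp2a genes within chr7:26307169-27037375.

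Several neighbours are so alike that reads can be shared between them. Of the 150-base stretches of the Cyp3a41a transcript, 82.9% occur unchanged in transcripts of other genes of the table, nearly all of the overlap being with Cyp3a41b, and 82.7% of those of Cyp3a41b occur in Cyp3a41a. The same share was 26.7% for Cyp2c40, 22.5% for Cyp2c69, 13% for Cyp2c67 and 8.83% for Cyp2c68, and it was below 7% for every other member. Counts of these 6 genes are therefore uncertain as to which copy the reads came from.

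The upstream sequences of 5 Cyp3a genes are shown because 4 of them, Cyp3a16, Cyp3a41a, Cyp3a41b and Cyp3a44, had the largest falls at 14 h of fasting, while Cyp3a11, the most abundant member, was not called lower in any comparison. Each is the minus strand of GRCm38 and ends at the base before the start of the gene, as given by RefSeq. Capitals mark CAAAGTCCA, the direct-repeat sequence known to be bound by Hnf4a, or the stretch of the same length that differs from it least. The windows are chr5:145879855-145879974 for Cyp3a11, chr5:145469724-145469843 for Cyp3a16, chr5:145720137-145720256 for Cyp3a41a, chr5:145584731-145584850 for Cyp3a41b and chr5:145805875-145805994 for Cyp3a44.
Cyp3a11: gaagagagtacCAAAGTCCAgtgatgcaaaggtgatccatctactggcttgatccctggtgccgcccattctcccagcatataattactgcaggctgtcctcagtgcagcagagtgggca
Cyp3a16: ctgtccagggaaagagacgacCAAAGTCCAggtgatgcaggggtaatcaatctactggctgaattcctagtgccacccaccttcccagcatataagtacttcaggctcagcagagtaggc
Cyp3a41a: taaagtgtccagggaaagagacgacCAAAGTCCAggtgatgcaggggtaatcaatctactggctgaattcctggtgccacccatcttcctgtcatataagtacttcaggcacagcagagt
Cyp3a41b: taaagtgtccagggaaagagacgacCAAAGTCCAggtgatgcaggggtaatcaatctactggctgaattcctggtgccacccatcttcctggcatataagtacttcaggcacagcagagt
Cyp3a44: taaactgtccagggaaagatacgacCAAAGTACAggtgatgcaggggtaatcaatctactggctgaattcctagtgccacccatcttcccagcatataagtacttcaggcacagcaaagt

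Aligned without gaps, 249 of 250 bases before the start were the same in Cyp3a41a and Cyp3a41b (99.6%), 236 of 250 in Cyp3a41a and Cyp3a44 (94.4%) and 231 of 246 in Cyp3a16 and Cyp3a41a (93.9%). The motif stood whole in Cyp3a11, Cyp3a16, Cyp3a41a and Cyp3a41b, while Cyp3a44 carried the substitution C7A, counted from 1 at the 5′ end of the motif. RefSeq promoters were found for 66 members in 76 windows of 250 bases, and 17 members had no entry. Searched on both strands, CAAAGTCCA occurred in 9 of the 76 member windows (11.8%) and in 126 of 32851 windows of all genes (0.384%). The members were these 4 Cyp3a genes and Cyp2c40, Cyp2c65, Cyp2c67, Cyp2c68 and Cyp2c69. The windows of Cyp3a16, Cyp3a41a and Cyp3a41b are near copies and so not independent cases. Cyp3a11, aligned without gaps, shared 45.1 to 45.5% of bases with them, a share that any inserted base lowers. Allowing for an inserted base after the motif, its printed window resembles theirs. Cyp3a11 is therefore not shown to be an independent case either. The xenobiotic response core GCGTG occurred in 21.1% of member windows and 28.2% of all, TATAAA in 31.6% and 12.4%, TTGCNNAA, a C/EBP motif, in 26.3% and 9.56%, and AGGTCA, a nuclear receptor half-site, in 22.4% and 14%. A match is a description of these letters and not a measured binding site.

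The matching stretch is shown for Cyp2c40, Cyp2c67, Cyp2c68 and Cyp2c69, the tested Cyp2c genes with the motif. All 4 fell in fasted livers, as given further on. Cyp2c38, Cyp2c44 and Cyp2c54 also fell there and are not among the members with the motif. Members without a RefSeq entry were not searched, and it is not given here whether Cyp2c44 and Cyp2c54 had one. A part of the motif in the falls was not tested. The 4 stretches are near copies of each other and so not independent cases. They lie on the minus strand at chr19:39812841-39812869, chr19:39649149-39649177, chr19:39741160-39741188 and chr19:39886826-39886854, at 45, 125, 77 and 75 bases before the listed start, and capitals again mark CAAAGTCCA.
Cyp2c40: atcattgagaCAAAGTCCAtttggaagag
Cyp2c67: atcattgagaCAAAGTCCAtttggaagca
Cyp2c68: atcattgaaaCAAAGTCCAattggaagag
Cyp2c69: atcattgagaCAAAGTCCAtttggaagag

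Levels between genes were compared per transcript length, as the mean over the 13 groups of the deposited TPM, transcript abundances corrected for length, which the authors rescaled. Cyp3a11, a main drug-oxidising enzyme of mouse liver, stood first at 1844 TPM, followed by Cyp2d26 at 1094, the coumarin hydroxylase Cyp2a5 at 1053, Cyp2c29 at 978, Cyp2c37 at 944, Cyp3a41a at 939.8, Cyp2c50 at 791, Cyp2d10 at 645 and Cyp2c69 at 622 TPM. Ranges over single libraries overlapped between all neighbours in this order. As a ratio of the highest to the lowest library, the range was widest for Cyp3a41a among these, from 5.76 to 3090.3 TPM over the 38 libraries. It was narrow for Cyp2d26, from 624 to 1715, and for Cyp2d10, from 424 to 903. Mid-level members were Cyp2a4 at 528, the naphthalene-activating Cyp2f2 at 451, Cyp3a25 at 398, Cyp2b9 at 306, the arachidonate epoxygenase Cyp2j5 at 296, Cyp2b13 at 217, Cyp3a13 at 107 and Cyp4v3 at 105 TPM. The Ahr target Cyp1a1 was low at 0.320 TPM and Cyp1b1 lower still at 0.123 TPM.

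**Figure D1:**
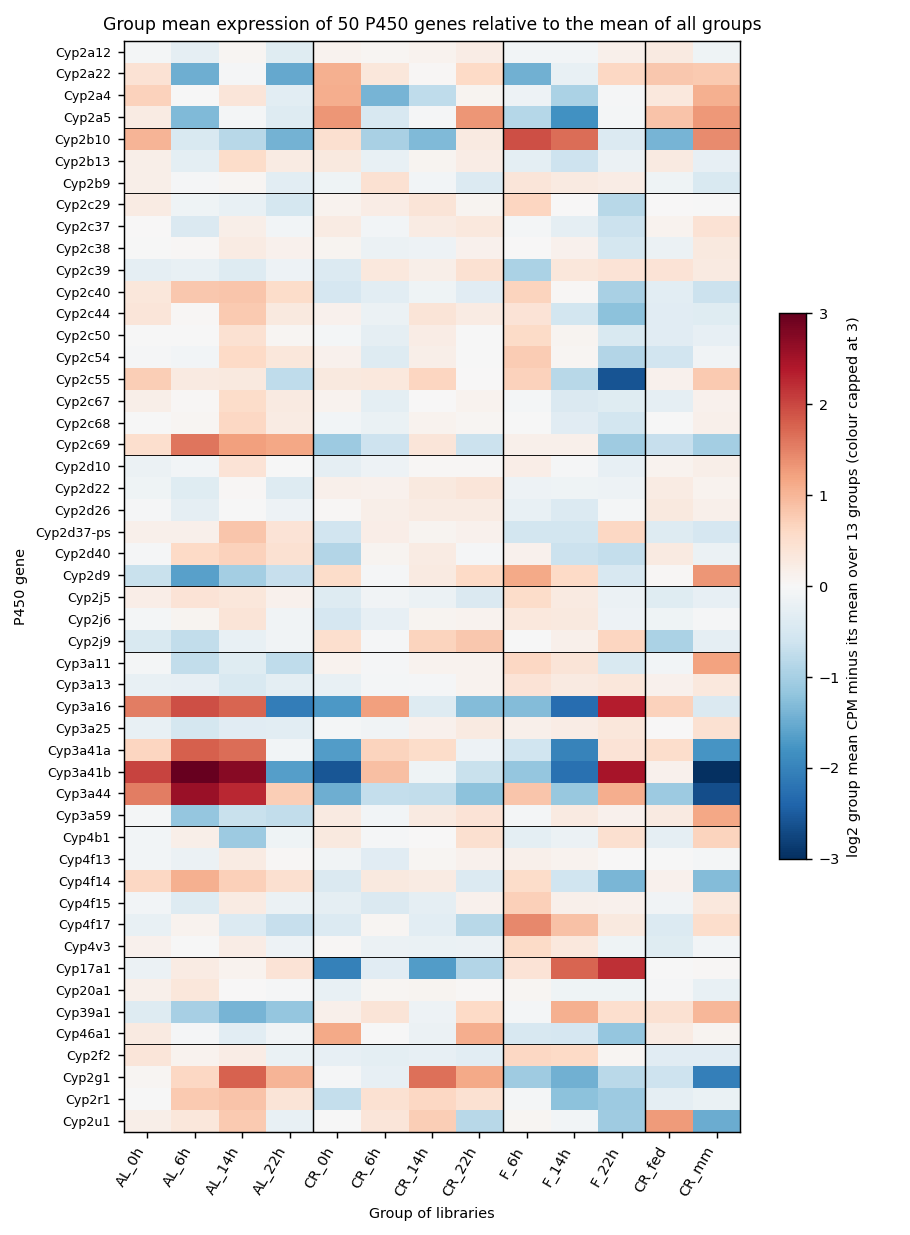
Group mean expression of the 50 tested P450 genes that reached 5 CPM in at least 1 group (rows, ordered by symbol stem) in the 13 groups (columns); colour gives the log2 group mean CPM minus its mean over all groups, capped at 3. The Cyp3a16, Cyp3a41b and Cyp3a44 rows span the widest range of colours, while rows such as Cyp2d10, Cyp2d26 and Cyp20a1 are nearly uniform.

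Before the comparisons, 6 libraries need to be named. In AL_0h 2 and AL_22h 2 the clock genes went against the labelled time, and AL_0h 3, CR_6h 3, CR_14h 3 and CR_22h 3 were, over all genes, nearest to a group of another diet. Each result that rests on them was also computed without them. The last 4 were picked by their likeness to another diet, so leaving them out widens the gap between diets by construction, and counts gained that way are no support for a difference. By clock genes, CR_fed 1, 2 and 3 were also nearest to another group, with correlations of 0.793, 0.738 and 0.865. With the rest of CR_fed these were 0.52, 0.724 and 0.338. CR_fed 3 was nearest to AL_6h. It is not among the 6 and was kept in the missed-meal comparison, except where single libraries were left out. Library totals lay between 17131292 and 30152277 expected counts, and the summed hepatocyte markers Alb, Apoa1, Ttr, Fgb, Ahsg and Serpinc1 between 64853 and 157874 CPM. Of the adrenal cortex markers Mc2r was at 0 in all 38 libraries and Nr5a1 in 35, while Star ran from 0.797 to 6.18 CPM. The library CR_fed 1 held 37 of the 40 reads of Cyp11b1, 19 of the 42 of Cyp11a1 and the highest count of Cyp21a1, 84 of 735. The adipocyte markers Adipoq, Lep and Cidea reached 15.2 CPM in 1 library of CR_fed and at most 0.330 CPM in every other library. In bulk tissue, fewer cells of a type and less RNA per cell cannot be told apart.

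Over the 11 pairs of groups, 34 of the 61 tested members were called in at least 1 pair, with 70 calls in all, and 27 were called in none by edgeR with all libraries. A call means an adjusted p under 0.05 over all 13786 genes tested. The share of members called exceeded the share of all genes in fasted against AL livers, and no test of that excess was made.

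**Figure D2:**
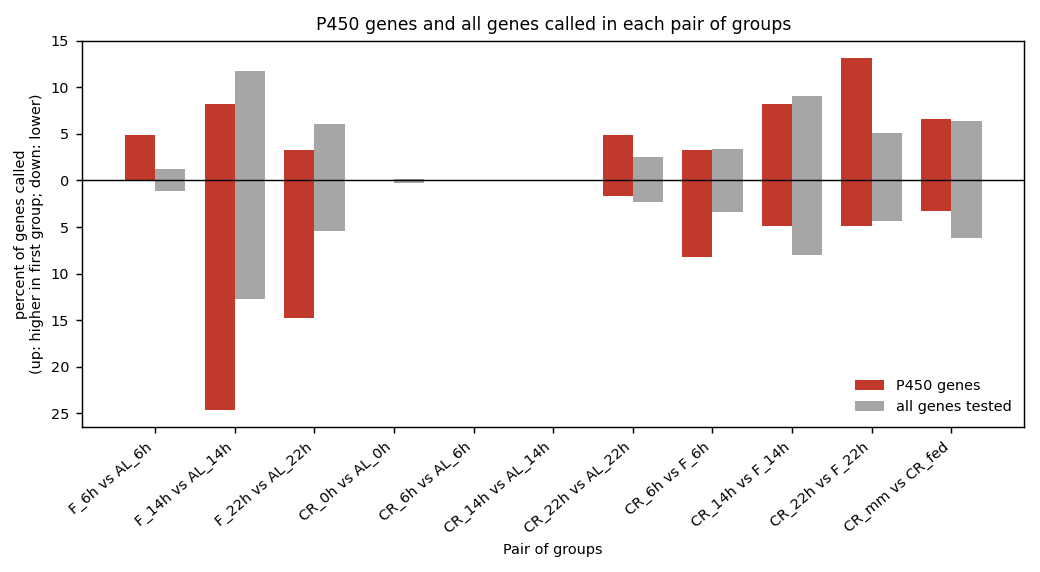
Percent of the 61 tested P450 genes (red) and of all 13786 tested genes (grey) called in each of the 11 pairs of groups, above 0 for genes higher in the first group and below 0 for genes lower in it. At 14 h of fasting 15 P450 genes were called lower and 5 higher, and no P450 gene was called in calorie-restricted against ad libitum livers at 0, 6 or 14 h.

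Fasted and AL livers were compared at matched times to ask how a fast changed these genes. At 6 h, 3 of 61 members rose (4.92%, beside 2.34% of all genes, 1.2% higher and 1.13% lower) and none fell. Cyp4f15, a fatty acid hydroxylase of the Cyp4f cluster, stood at 214, 217 and 190.2 CPM in F_6h 1 to 3 and at 109 and 85.0 CPM in the 2 AL libraries, a log2 fold change of 1.09 ± 0.22 (standard error, adjusted p = 0.00463). Its neighbour Cyp4f17 had 19.3, 20.3 and 15.0 CPM against 7.25 and 7.28 CPM, a rise of 1.33 ± 0.24 (adjusted p = 0.00163). Every fasted library stood above both AL libraries for both genes. The steroid 16α-hydroxylase Cyp2d9, known for its higher level in males, showed 94.8, 174 and 70.7 CPM against 10.7 and 22.3 CPM, 6.86-fold higher (adjusted p = 0.00633). Cyp3a41a was not called at 6 h (adjusted p = 0.347), its 429, 19.8 and 1402 CPM in fasted livers lying below the 4082 and 2453 CPM of AL livers with a wide spread. AL_6h held only 2 libraries, and 14 members had an unadjusted p under 0.05. Here and below, the share of all genes at that unadjusted threshold is not given, so such counts are no support for a difference. The Cyp4f15 call was lost without AL_6h 2 (0.116) and the Cyp2d9 call without AL_6h 1 (0.215), the adjusted p standing in parentheses.

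At 14 h, 20 members were called (32.8%, beside 24.5% of all genes, 11.8% higher and 12.7% lower), 15 of them lower and 5 higher in fasted livers. The members' median log2 fold change was -0.38, against -0.04 over all genes tested. Of the Cyp3a stem, 4 of 8 tested members were lower and none higher. The female-predominant Cyp3a41a had 119, 108 and 471 CPM in the fasted libraries and 3565, 1653 and 3789 CPM in the AL libraries, 12.9-fold lower (log2 -3.69 ± 1.18, adjusted p = 0.0217). Its near copy Cyp3a41b had 1.44, 0.712 and 6.78 against 131, 5.07 and 146 CPM (log2 -4.97 ± 1.78, adjusted p = 0.0393). For Cyp3a41b and for Cyp3a16, at 4.54, 1.21 and 5.71 against 89.9, 8.29 and 91.9 CPM, AL_14h 2 stood far below the other AL libraries, inside the fasted range for Cyp3a41b and just above it for Cyp3a16. Summed over the near copies, Cyp3a41a and Cyp3a41b held 121, 109 and 477 CPM in fasted and 3696, 1658 and 3935 CPM in AL livers. Cyp3a44 had 24.2, 8.44 and 16.7 CPM against 206, 136 and 183 CPM without overlap, 10.6-fold lower (adjusted p = 0.00508). The remaining tested Cyp3a genes were not called, and Cyp3a11 stood at 3323, 4531 and 2513 CPM in fasted and 2122, 1459.8 and 2568 CPM in AL livers (log2 0.75 ± 0.34, adjusted p = 0.099).

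**Figure D3:**
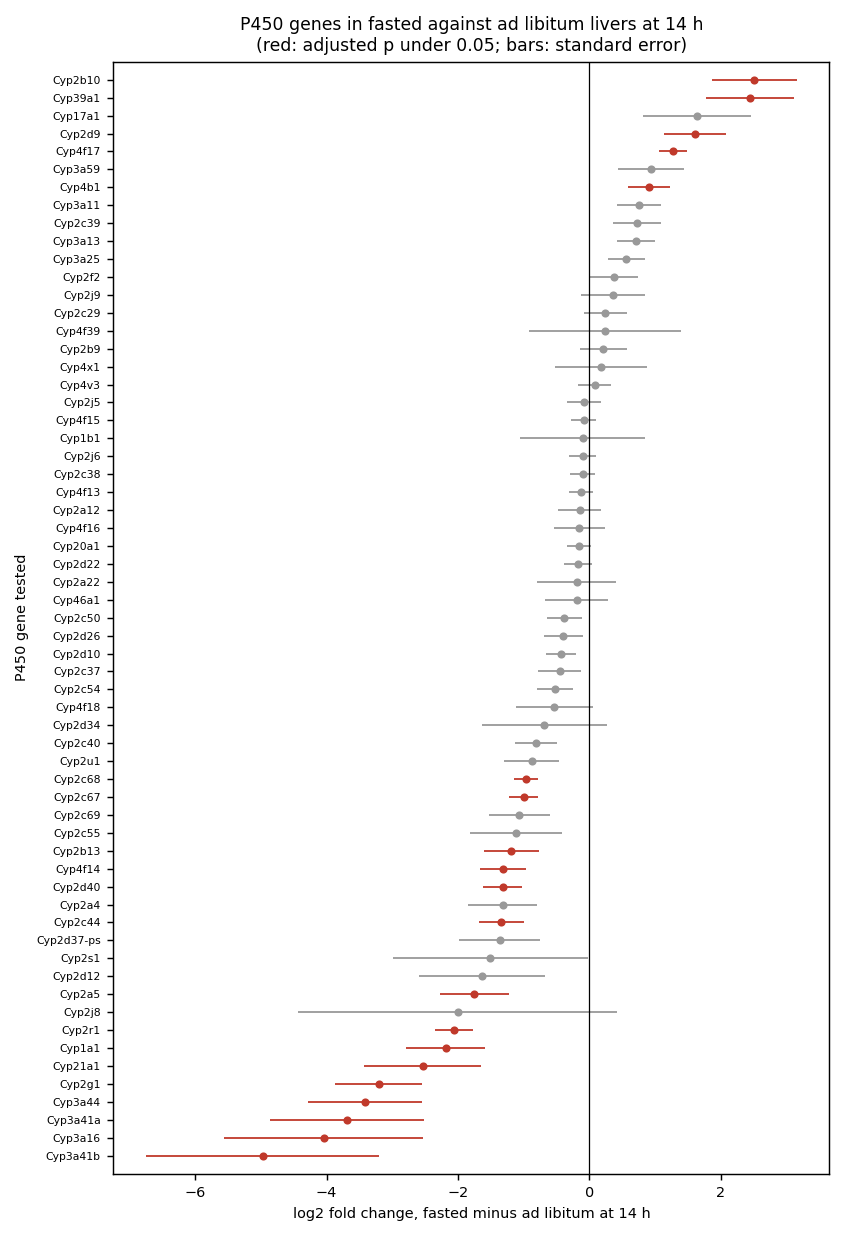
Log2 fold change of each of the 61 tested P450 genes after 14 h of fasting relative to ad libitum feeding (3 libraries each), with bars of 1 standard error; red marks an adjusted p under 0.05. The 4 lowest points are Cyp3a41b, Cyp3a16, Cyp3a41a and Cyp3a44, and the highest called point is Cyp2b10.

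In the Cyp2 families at 14 h, 8 members fell. The vitamin D 25-hydroxylase Cyp2r1 (chr7:114549682-114562972) had 4.48, 5.37 and 4.91 CPM in fasted livers and 18.4, 14.8 and 28.6 CPM in AL livers, 4.18-fold lower with a wide gap between the groups (log2 -2.06 ± 0.29, adjusted p = 1.43e-05). Cyp2g1, known from olfactory mucosa, fell from 8.25, 8.20 and 12.6 CPM in AL to 1.28, 1.59 and 0.267 CPM in fasted livers (adjusted p = 0.000853). Cyp2a5 had 464, 233 and 247 CPM against 1109, 648 and 1418 CPM (log2 -1.75 ± 0.52, adjusted p = 0.0143), and all 3 fasted values lay below the lowest AL value. Among the Cyp2c genes, 3 of 12 fell and none rose: the epoxygenase Cyp2c44 (log2 -1.34 ± 0.34), Cyp2c67 (adjusted p = 0.00202) and Cyp2c68 (-0.96 ± 0.18). Cyp2c68 had 374, 478 and 439.9 CPM in fasted and 877, 741 and 897 CPM in AL livers (adjusted p = 0.000407). Further calls were Cyp2d40 at -1.32 ± 0.30 and the female-predominant Cyp2b13 at -1.18 ± 0.42 on the log2 scale. Outside Cyp2 and Cyp3, the leukotriene and vitamin E hydroxylase Cyp4f14 had 110.2, 141 and 135 CPM against 289, 360.5 and 310.0 CPM (adjusted p = 0.00715), while Cyp1a1 (-2.19 ± 0.60) and the steroid 21-hydroxylase Cyp21a1 (-2.54 ± 0.89) fell at levels of at most 2.41 CPM in any of the 6 libraries. Cyp21a1 was below the level set for naming and is named after its values were seen.

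The 5 genes that rose at 14 h were of other kinds. Cyp2b10 (chr7:25897620-25926624), the classical target of Nr1i3, had 135, 94.9 and 138 CPM in fasted and 24.1, 10.7 and 29.5 CPM in AL livers, 5.72-fold higher (log2 2.52 ± 0.65, adjusted p = 0.00538). Its close relatives went other ways, Cyp2b13 being called lower and Cyp2b9, at 435, 461 and 421 against 428, 368 and 337 CPM, not being called (log2 0.22 ± 0.35, adjusted p = 0.696). The oxysterol 7α-hydroxylase Cyp39a1 (chr17:43667425-43751431) rose to 172, 140.2 and 226 CPM against 25.2, 45.9 and 27.2 CPM, 5.47-fold (adjusted p = 0.00856). Cyp4f17 had 9.98, 12.6 and 14.6 CPM against 4.87, 5.88 and 4.52 CPM (log2 1.28 ± 0.21, adjusted p = 0.000103). Cyp2d9 at 1.61 ± 0.47 and the furan-activating Cyp4b1 at 0.91 ± 0.31 on the log2 scale complete the list. The groups did not overlap for Cyp2b10, Cyp39a1, Cyp4f17 and Cyp2d9, but for Cyp4b1 the highest AL library, at 8.94 CPM, and the lowest fasted one, at 8.93 CPM, were nearly equal.

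The calls at 14 h that ended when 1 library was left out, with the adjusted p without it, were as follows. Cyp3a41b lost its call without AL_14h 1 (0.0823), AL_14h 3 (0.0976), F_14h 1 (0.129), F_14h 2 (0.122) and F_14h 3 (0.0572). For Cyp3a16 the call ended without AL_14h 1 (0.11), AL_14h 3 (0.121), F_14h 1 (0.12), F_14h 2 (0.145) and F_14h 3 (0.101), and for Cyp3a41a without AL_14h 3 (0.058), F_14h 1 (0.0914) and F_14h 2 (0.0812). The same held for Cyp21a1 without AL_14h 1 (0.186), F_14h 1 (0.0543), F_14h 2 (0.132) and F_14h 3 (0.0849), Cyp1a1 without F_14h 1 (0.0585), Cyp2a5 without AL_14h 3 (0.0748), F_14h 2 (0.062) and F_14h 3 (0.0654) and Cyp2b13 without AL_14h 1 (0.113), AL_14h 3 (0.109), F_14h 2 (0.109) and F_14h 3 (0.134). Among the genes that rose, Cyp2d9 lost it without AL_14h 1 (0.0601), AL_14h 3 (0.0828) and F_14h 2 (0.0883) and Cyp4b1 without AL_14h 1 (0.19), F_14h 1 (0.0685) and F_14h 3 (0.121). Removing each library's trend with transcript length left 15 members called, ending the calls on Cyp21a1, Cyp2a5, Cyp2b13, Cyp2d40, Cyp3a16 and Cyp3a41b. Sinusoidal endothelial markers moved with this comparison: 3 of 5 rose (Lyve1, Pecam1 and Stab2), as did the stellate marker Reln, with a summed endothelial level of 151 to 187 CPM in fasted and 50.1 to 116 CPM in AL libraries. Pancreas acinar markers summed to 0.658 to 10.3 CPM and 0.107 to 1.14 CPM, with Cpa1 and Pnlip of 3 called higher, and hepatocyte markers to 86539.8 to 102060.1 CPM and 136806 to 140233 CPM, with Ttr of 6 called lower. Of 8 markers of pericentral hepatocytes, where many P450s are made, Gstm6 and Lect2 fell and Tbx3 rose, at a sum of 2852 to 3199 CPM in fasted and 2731 to 3140.5 CPM in AL livers. Their part in the result was not tested.

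At 22 h, 11 members were called (18%, beside 11.5% of all genes, 6.06% higher and 5.4% lower), 9 lower and 2 higher in fasted livers. The members' median log2 fold change was 0.21, of opposite sign to most calls, against -0.03 over all genes tested. The Cyp2c stem stood out by its count, with 6 of 12 members lower and none higher. Cyp2c69, a female-predominant steroid hydroxylase gene (chr19:39842814-39886799), had 188, 305 and 333 CPM in fasted and 1262, 1043 and 1552 CPM in AL libraries, 4.67-fold lower (log2 -2.22 ± 0.48, adjusted p = 0.00318). Its relative Cyp2c40 had 176, 274 and 233 CPM against 626, 552 and 767 CPM (adjusted p = 0.00364) and Cyp2c44 71.2, 119.7 and 82.1 CPM against 247, 285 and 255 CPM (adjusted p = 0.00411). For all 3 genes every fasted library lay well below every AL library. Smaller falls were called for Cyp2c54 (log2 -1.23 ± 0.28), Cyp2c68 (-0.78 ± 0.18) and Cyp2c38 (-0.65 ± 0.19). The summed level of the 14 Cyp2c genes was 3318 ± 567 CPM (SD, n = 3) in fasted and 6275 ± 507 CPM (SD, n = 3) in AL livers.

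Beyond Cyp2c, Cyp4f14 had 37.9, 124 and 62.1 CPM in fasted against 235, 335 and 245 CPM in AL livers at 22 h, 3.63-fold lower (adjusted p = 0.00125). Cyp2r1 was again low, at 4.25, 4.10 and 7.85 CPM against 12.4, 20.0 and 12.8 CPM (log2 -1.47 ± 0.28, adjusted p = 0.00125), and Cyp2d40 fell by 2.27-fold. The genes that rose were Cyp4f17, at 8.91, 6.15 and 9.66 CPM against 3.68, 5.37 and 3.52 CPM (adjusted p = 0.00343), and Cyp2a22, at 275, 134 and 106 CPM against 40.7, 44.0 and 30.9 CPM (adjusted p = 0.0238). The Cyp3a genes called lower at 14 h did not pass edgeR's test at 22 h. Cyp3a41a had 1625, 1642 and 479.6 CPM in fasted and 953, 153 and 1537 CPM in AL livers (adjusted p = 0.806), with F_22h 3 and AL_22h 2 far below the other libraries of their groups. Cyp3a16, called lower at 14 h, had 171, 111 and 3.82 CPM in fasted and 3.77, 0.444 and 9.05 CPM in AL livers (log2 4.43 ± 1.53, adjusted p = 0.055), a difference of the opposite sign that DESeq2 called (adjusted p = 0.0158), as did the fit to the compared libraries alone (adjusted p = 0.0484). Cyp3a41b had 123, 105 and 5.31 CPM against 6.06, 0.532 and 6.96 CPM (log2 4.10 ± 1.69, adjusted p = 0.108) and was called higher by the fit to the compared libraries alone (adjusted p = 0.0405). For both genes F_22h 3 lay inside the AL range. Cyp2b10, high at 14 h, stood at 20.7, 48.7 and 17.3 CPM against 7.88, 29.1 and 6.33 CPM (adjusted p = 0.311). Leaving out 1 library ended the calls on Cyp2a22 without AL_22h 1 (0.0775), AL_22h 2 (0.0515), AL_22h 3 (0.0918) and F_22h 1 (0.148), Cyp2c38 without AL_22h 2 (0.133), AL_22h 3 (0.0564), F_22h 1 (0.0791) and F_22h 2 (0.0909), Cyp2c54 without F_22h 1 (0.0549) and Cyp2d40 without F_22h 2 (0.0648), where parentheses hold the adjusted p. Without AL_22h 2 and the other library of a deviant clock 12 members were called, beside 9.65% of all genes. Without all 6 named libraries 19 were called, of which 8 were higher and 11 lower, beside 14% of all genes. Removing the trend with transcript length ended the calls on Cyp2c38, Cyp2c68 and Cyp2d40. Markers moved here too: the pericentral Gstm6 and Lect2 and the hepatocyte marker Ttr fell, and Lyve1, Reln and the periportal Hsd17b13 rose. The stellate sum was 354 to 363 CPM in fasted and 299 to 309 CPM in AL livers, and the part of these cells in the result was not tested.

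Only Cyp4f17 was called at 6, 14 and 22 h of fasting alike, and with 7 of the 11 pairs it was called in more pairs than any other member. The test of whether the fasting effect differed between these times called no member by edgeR, beside 0.0653% of all genes, while 18 members had an unadjusted p under 0.05 and DESeq2 called 1, Cyp2c54 (adjusted p = 0.00797). The edgeR test called 1 member without F_22h 3. So a gene called at 14 h and not at 22 h, such as Cyp2b10 or Cyp3a41a, was not shown to differ between the times. The members of smallest p in that test were Cyp2c54 (adjusted p = 0.113), Cyp3a16, Cyp4f15, Cyp2c44, Cyp3a41b and Cyp2d9. On the log2 scale the Cyp2c54 difference between fasted and AL livers was 0.84 ± 0.32 at 6 h, -0.52 ± 0.28 at 14 h and -1.23 ± 0.28 at 22 h.

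**Figure D4:**
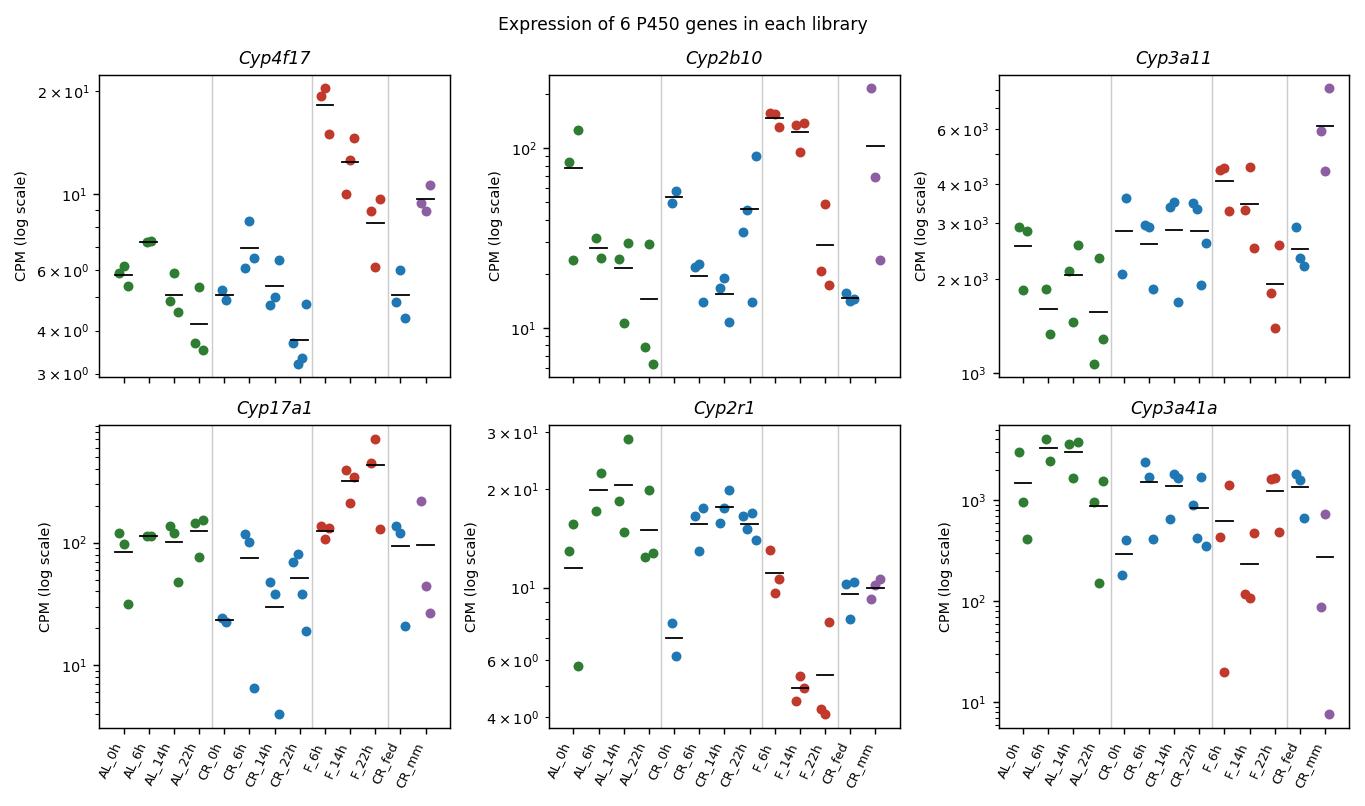
CPM of 6 P450 genes in each of the 38 libraries (points; log axis) by group, with the group mean as a bar; ad libitum groups are green, calorie-restricted blue, fasted red and the missed meal purple. Cyp4f17 and Cyp2b10 are high in F_6h and F_14h, Cyp3a11 is highest in CR_mm, Cyp17a1 is high in F_14h and F_22h, Cyp2r1 is low in F_14h and F_22h, and of the 6 genes Cyp3a41a varies most over the libraries.

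Calorie-restricted and AL livers were compared at each time to ask whether restriction itself changed these genes. With all libraries, no member was called at 0, 6 or 14 h by edgeR, beside 0.479%, 0% and 0.0218% of all genes (0.21% higher and 0.268% lower at 0 h, 0.00725% higher and 0.0145% lower at 14 h). At an unadjusted p under 0.05 stood 9, 6 and 9 members, and DESeq2 called 0, 1 and 0. At 22 h 4 members were called (6.56%, beside 4.88% of all genes, 2.57% higher and 2.31% lower). Cyp2c69 fell, with 318, 283, 535 and 347 CPM in the 4 restricted libraries and 1262, 1043 and 1552 CPM in the AL libraries (log2 -1.79 ± 0.43, adjusted p = 0.0147). Cyp2a5 rose, with 2837, 2527, 3017 and 2734 CPM against 986, 495 and 1052 CPM (adjusted p = 0.0416), and so did Cyp2a22, with 171, 165, 155 and 185 CPM against 40.7, 44.0 and 30.9 CPM (adjusted p = 0.038). Cyp2d22, held to be the mouse gene closest to human CYP2D6, rose from 159.6, 172 and 162 CPM to 332, 302, 289 and 201 CPM (adjusted p = 0.0277). No restricted library overlapped with an AL library for any of the 4 genes.

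The count at 22 h depended on single libraries: 1 member was called without AL_22h 1, 0 without AL_22h 3, 0 without CR_22h 1, 1 without CR_22h 2, 2 without CR_22h 4 and 11 without CR_22h 3. CR_22h 3 is 1 of the 4 libraries picked by likeness to another diet. The shares of all genes called in these leave-one-out fits are not given here, so the counts show only how unstable the calls were. Without the 2 libraries of a deviant clock 3 members were called, beside 2.78% of all genes. Cyp2c69 lost its call without AL_22h 3 (0.0659) and CR_22h 1 (0.0552), Cyp2d22 without AL_22h 1 (0.1), AL_22h 2 (0.0654), AL_22h 3 (0.0875), CR_22h 1 (0.0979) and CR_22h 2 (0.0533), Cyp2a5 without AL_22h 1 (0.105), AL_22h 2 (0.154), AL_22h 3 (0.0855), CR_22h 1 (0.0889), CR_22h 2 (0.0544) and CR_22h 4 (0.0707) and Cyp2a22 without AL_22h 1 (0.114), AL_22h 2 (0.0891), AL_22h 3 (0.132), CR_22h 1 (0.0778), CR_22h 2 (0.0544) and CR_22h 4 (0.0704), the adjusted p standing in parentheses. Kupffer cell markers moved with the comparison, 2 of 5 (C1qa and Clec4f) being lower in restricted livers, and their summed level in AL_22h was 273 to 369 CPM against 92.5 to 254 CPM in CR_22h. The periportal Hsd17b13 and Sds and the intestinal Vil1 were higher. Their part was not tested.

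When the 4 libraries nearest to another diet were left out, the members called numbered 5, 3, 8 and 14 for the hours 0, 6, 14 and 22, beside 2.92%, 0.551%, 4.27% and 14.6% of all genes. At 0 h 1 member was called without AL_0h 3 alone. Without all 6 named libraries the counts were 4, 10 and 14 for the hours 6, 14 and 22, beside 0.791%, 4.97% and 11.9% of all genes. That fit leaves AL_0h 1 as the only library of its group, so no count is given for 0 h. The 4 libraries nearest to another diet were picked by that likeness, so leaving them out widens the gaps between diets by construction. The differences that follow are thus no support for an effect of restriction. With all libraries none of the genes below was called at 0, 6 or 14 h, and only Cyp2c69 at 22 h. In the comparisons without these 4, Cyp2c69 was lower at all 4 times, with log2 differences in order of time of -1.98 ± 0.44, -2.60 ± 0.45, -1.59 ± 0.41 and -2.03 ± 0.36. Cyp2c40 was likewise lower at each time, at -1.16 ± 0.32, -1.44 ± 0.32, -1.23 ± 0.30 and -1.09 ± 0.26. Cyp3a44 was called lower at 0, 14 and 22 h, at -3.53 ± 0.83, -3.54 ± 0.80 and -3.15 ± 0.68. Cyp39a1 was called higher at 6, 14 and 22 h, by 1.85 ± 0.42, 1.74 ± 0.37 and 2.08 ± 0.35, and Cyp3a59 at 14 and 22 h, by 1.39 ± 0.33 and 1.40 ± 0.31.

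With all libraries kept, the values of these genes show how the named libraries stood. Cyp39a1 had 148, 162 and 23.1 CPM in CR_6h 1 to 3, 96.1, 123 and 10.04 CPM in CR_14h 1 to 3 and 197, 169, 24.9 and 124 CPM in CR_22h 1 to 4, so that the replicate 3 library was the lowest of its group each time. The AL libraries held 52.9 and 32.8 CPM at 6 h, 25.2, 45.9 and 27.2 CPM at 14 h and 41.3, 37.4 and 37.1 CPM at 22 h. For Cyp2c69 the pattern was turned around, with 302, 275 and 547 CPM, 339.8, 551 and 1349 CPM and 318, 283, 535 and 347 CPM in the same restricted groups, and AL_0h 3 at 306 CPM beside 960.2 and 1188 CPM in AL_0h 1 and 2. Cyp3a44 had 12.1, 17.6 and 34.9 CPM at 14 h of restriction against 206, 136 and 183 CPM, which did not overlap, yet the all-library adjusted p was 0.198. The test of whether the restriction effect differed between 0, 6, 14 and 22 h called no member by edgeR, beside 0.442% of all genes, with 3 members at an unadjusted p under 0.05 and none called by DESeq2.

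**Figure D5:**
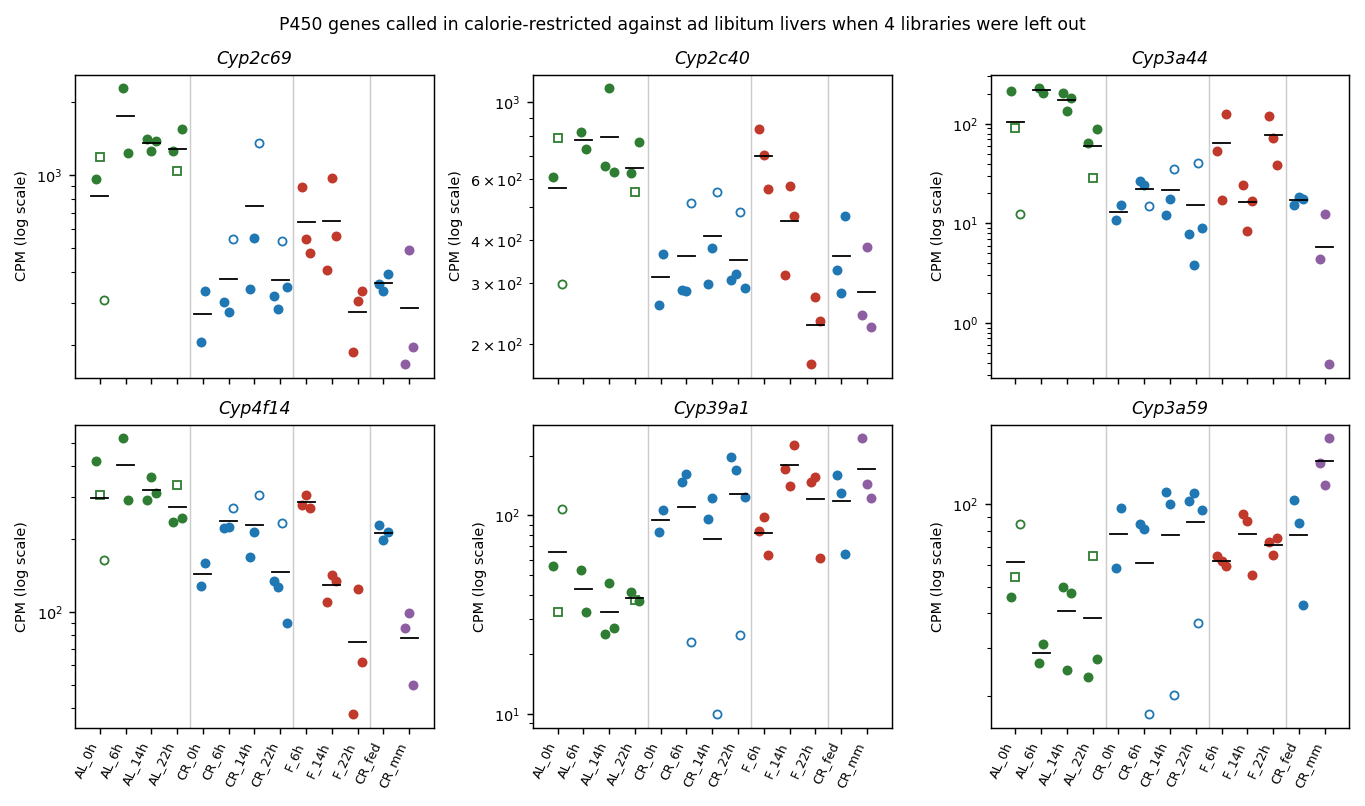
CPM of 6 P450 genes in each library (log axis) with the group mean over all libraries as a bar; open circles are the 4 libraries nearest to another diet, open squares the 2 of a deviant clock. The open blue circles of Cyp39a1, at 23.1, 10.04 and 24.9 CPM, lie below the ad libitum values of their time, and the open green circle of Cyp2c69, at 306 CPM, lies among the calorie-restricted ones.

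Restricted and fasted livers were compared at matched times. These comparisons share the fasted libraries with those above, so a gene that moved with fasting may appear in both. At 6 h, 7 members were called (11.5%, beside 6.8% of all genes, 3.39% higher and 3.41% lower), 5 lower and 2 higher in restricted livers. Cyp2b10 had 21.9, 22.6 and 13.9 CPM in restricted and 156, 156 and 132 CPM in fasted livers, 7.60-fold lower (log2 -2.93 ± 0.66, adjusted p = 0.00529). Cyp4f17 stood at 6.08, 8.34 and 6.53 against 19.3, 20.3 and 15.0 CPM (adjusted p = 9.8e-05) and Cyp4f15 at 101, 111 and 67.9 against 214, 217 and 190.2 CPM (adjusted p = 0.000245). None of these 3 genes overlapped between the groups. Cyp2c54 and Cyp2c50 were lower, with log2 differences of -1.14 ± 0.28 and -0.84 ± 0.26, and Cyp2c39 and Cyp1a1 higher, with 1.28 ± 0.37 and 2.38 ± 0.62. The groups overlapped for Cyp2c39. Cyp1a1 stayed under 1 CPM in all 6 libraries. The count fell to 4 without CR_6h 1, F_6h 2 or F_6h 3 and to 3 without F_6h 1. Calls that ended were Cyp2c50 without CR_6h 1 (0.103), CR_6h 2 (0.0601), CR_6h 3 (0.19), F_6h 1 (0.144), F_6h 2 (0.0994) and F_6h 3 (0.0975), Cyp2c39 without CR_6h 1 (0.134), CR_6h 2 (0.179), F_6h 1 (0.0957), F_6h 2 (0.134) and F_6h 3 (0.0753), Cyp1a1 without CR_6h 1 (0.0666), F_6h 1 (0.0848), F_6h 2 (0.0615) and F_6h 3 (0.0544) and Cyp2c54 without CR_6h 3 (0.054) and F_6h 1 (0.0659), with the adjusted p in parentheses. Without the 4 libraries nearest to another diet 8 members were called, beside 8.69% of all genes. Of the pericentral hepatocyte markers Oat and Slc1a2 were lower in restricted livers, with sums of 1156 to 1492 CPM against 1930.2 to 1977 CPM, as was the periportal Sds, and their part was not tested.

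At 14 h, 8 members were called (13.1%, beside 17.1% of all genes, 9.1% higher and 7.97% lower), 5 higher and 3 lower in restricted livers. The steroid 17α-hydroxylase Cyp17a1 (chr19:46667165-46673172) had 47.4, 38.1 and 3.99 CPM in restricted and 390.3, 212 and 347 CPM in fasted livers, 10.6-fold lower (log2 -3.41 ± 0.89, adjusted p = 0.00807). Its level in the AL livers of that time, 138, 119 and 47.8 CPM, lay between the groups, and neither the fasted livers (adjusted p = 0.151) nor the restricted ones (adjusted p = 0.505) were called against AL. Cyp2b10 had 16.6, 18.9 and 10.8 CPM against 135, 94.9 and 138 CPM (adjusted p = 0.00223), and Cyp4f17 4.75, 5.02 and 6.42 against 9.98, 12.6 and 14.6 CPM (adjusted p = 0.000257). Higher in restricted livers were Cyp2r1, at 15.7, 17.5 and 19.9 against 4.48, 5.37 and 4.91 CPM (log2 1.85 ± 0.28, adjusted p = 5.35e-05), and Cyp2g1, at 7.47, 11.8 and 7.37 against 1.28, 1.59 and 0.267 CPM (adjusted p = 0.0017). Neither overlapped. Cyp1a1, Cyp2a5 and Cyp2d40 were higher by 2.60 ± 0.60, 1.77 ± 0.52 and 0.88 ± 0.30 on the log2 scale. For Cyp2a5 the restricted libraries ran from 235 CPM in CR_14h 3 to 2041 CPM in CR_14h 2, across the fasted range. Calls ended for Cyp2d40 without CR_14h 1 (0.0587), CR_14h 3 (0.146), F_14h 1 (0.0942), F_14h 2 (0.0769) and F_14h 3 (0.112), Cyp2a5 without CR_14h 2 (0.251), F_14h 2 (0.0713) and F_14h 3 (0.0785) and Cyp1a1 without CR_14h 2 (0.0592), with the adjusted p in parentheses. Of the endothelial markers, Lyve1 and Pecam1 were lower in restricted livers, at a summed 107 to 146 CPM for the 5. Of the 8 pericentral hepatocyte markers Gstm6 and Lect2 were higher and Oat and Slc1a2 lower, and the sum was 1639 to 2169 CPM in restricted and 2852 to 3199 CPM in fasted livers without overlap. Ttr, Krt19 and Aldh1b1 were also called higher and Cpa1 lower. Their part was not tested. Without the 4 libraries nearest to another diet 10 members were called, beside 14.4% of all genes.

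At 22 h, 11 members were called (18%, beside 9.44% of all genes, 5.13% higher and 4.32% lower), 8 higher and 3 lower in restricted livers. The Cyp2c stem gave 5 of the 8 rises and no fall. Cyp2c44 had 242, 216, 372 and 188 CPM in restricted and 71.2, 119.7 and 82.1 CPM in fasted livers (log2 1.48 ± 0.32, adjusted p = 0.00345) and Cyp2c68 627, 631, 496 and 498 against 355, 345 and 420.0 CPM (adjusted p = 0.0242). The others were Cyp2c38 (0.66 ± 0.18), Cyp2c54 (0.87 ± 0.27) and Cyp2c55 (2.51 ± 0.75). In contrast, Cyp2c69 and Cyp2c40 were low in both groups, Cyp2c69 with 318, 283, 535 and 347 CPM in restricted and 188, 305 and 333 CPM in fasted livers (adjusted p = 0.573). Cyp2r1 stood at 16.6, 15.1, 17.0 and 14.0 against 4.25, 4.10 and 7.85 CPM (adjusted p = 0.000433), Cyp46a1, the cholesterol 24-hydroxylase best known from brain, at 4.89, 5.47, 9.74 and 6.18 against 0.962, 0.683 and 2.50 CPM (adjusted p = 0.00242), and Cyp2g1 was higher by 1.93 ± 0.60. Lower were Cyp17a1, at 69.5, 80.1, 38.1 and 18.8 against 449, 710.1 and 129.9 CPM (log2 -3.06 ± 0.78, adjusted p = 0.0116), Cyp4f17 at -1.14 ± 0.20 and Cyp3a44 at -2.31 ± 0.75. For Cyp3a44 the library CR_22h 3, at 40.9 CPM, overlapped the fasted range, and the groups also overlapped for Cyp2c54.

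At 22 h the count fell to 5 without F_22h 1 and to 5 without F_22h 2, while it was 14 without the 4 libraries nearest to another diet, beside 14.2% of all genes, and 17 without all 6 named libraries, beside 14.9%. Calls that ended, with the adjusted p in parentheses, were Cyp17a1 without F_22h 2 (0.0695), Cyp2c38 without CR_22h 1 (0.0526), F_22h 1 (0.0775) and F_22h 2 (0.0826), Cyp2c68 without CR_22h 1 (0.0666), CR_22h 2 (0.0697), F_22h 1 (0.115) and F_22h 2 (0.104) and Cyp2c55 without CR_22h 3 (0.0502), F_22h 1 (0.151) and F_22h 2 (0.129). The same held for Cyp2c54 without CR_22h 3 (0.064), CR_22h 4 (0.109), F_22h 1 (0.257) and F_22h 2 (0.0932), Cyp2g1 without CR_22h 3 (0.0863), F_22h 1 (0.147) and F_22h 2 (0.14) and Cyp3a44 without CR_22h 1 (0.116), CR_22h 2 (0.134), CR_22h 4 (0.096), F_22h 1 (0.215) and F_22h 2 (0.0873). Among markers, Gstm6 and Ttr were higher and Oat and Apoa1 lower in restricted livers, and their part was not tested.

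The missed meal was compared with feeding in restricted mice at zeitgeber time 18 to ask how these genes responded when expected food did not come. Of 61 members 6 were called (9.84%, beside 12.5% of all genes, 6.34% higher and 6.13% lower), 4 higher and 2 lower after the missed meal. Cyp3a11 had 5892, 4409.9 and 8084 CPM after the missed meal and 2931, 2335 and 2189 CPM after feeding, 2.47-fold higher without overlap (log2 1.30 ± 0.34, adjusted p = 0.011), and CR_mm held its highest group mean of all 13 groups. Cyp2b10 had 215, 68.8 and 23.9 CPM against 15.6, 14.0 and 14.5 CPM (log2 2.80 ± 0.65, adjusted p = 0.00517), so all 3 missed-meal libraries stood above the fed ones but spread widely among themselves. Cyp4f17 had 9.41, 8.96 and 10.7 CPM against 4.85, 6.01 and 4.37 CPM (adjusted p = 0.0039) and Cyp4b1 20.1, 20.1 and 17.8 CPM against 13.6, 8.68 and 8.14 CPM (adjusted p = 0.0412). The fatty acid hydroxylase Cyp2u1 (chr3:131288441-131303227) fell to 1.26, 0.689 and 0.973 CPM from 7.87, 7.99 and 4.00 CPM, 6.81-fold (adjusted p = 0.0002), and Cyp4f14 to 85.7, 99.1 and 49.7 CPM from 228, 198 and 213 CPM (log2 -1.45 ± 0.35, adjusted p = 0.00716).

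In this pair same-numbered libraries deviated together weakly, with correlations across genes of 0.144 to 0.2. The labels do not say that equal numbers mean a pair. A fit to the 6 libraries with the replicate number as a block was added after seeing the data. It called 13 members, 8 higher and 5 lower, beside 22.2% of all genes, and all 6 above were among them. The 7 added were Cyp2a4 (log2 0.97 ± 0.23), Cyp2d9 (1.33 ± 0.30), Cyp2c38 (0.49 ± 0.13) and Cyp2c54 (0.47 ± 0.14), which were higher, and Cyp3a16 (-1.84 ± 0.53), Cyp3a41a (-4.02 ± 0.94) and Cyp3a41b (-3.49 ± 0.78), which were lower. Cyp3a41a stood at 87.8, 730.5 and 7.68 CPM in CR_mm 1 to 3 and 1802, 1573 and 668 CPM in CR_fed 1 to 3. With the block in the fit to all libraries the count was 6. Only 3 members were called without CR_mm 3, and calls ended for Cyp2b10 without CR_mm 1 (0.0858), Cyp3a11 without CR_mm 3 (0.0837), Cyp4f14 without CR_mm 3 (0.0637) and Cyp4b1 without CR_fed 2 (0.133), CR_fed 3 (0.152), CR_mm 1 (0.0888), CR_mm 2 (0.0967) and CR_mm 3 (0.082), with the adjusted p in parentheses. All 3 red cell markers (Hba-a1, Hbb-bs and Alas2) were higher after the missed meal, summing to 3133 to 9775 CPM against 579.7 to 1439.6 CPM, and so were Clec4g and Pecam1 of the 5 endothelial markers. Of the 5 stellate cell markers Dcn and Rgs5 were higher, with sums of 325 to 399 CPM against 208 to 235 CPM without overlap. The pericentral Slc1a2 and the periportal Sds were higher and the periportal Aldh1b1 lower. Their part in the result was not tested.

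Within AL livers no member was called between 0, 6, 14 and 22 h by edgeR, beside 0.276% of all genes, with 8 members at an unadjusted p under 0.05 and 1, Cyp2b10, called by DESeq2. Without AL_0h 2, or without AL_22h 2, edgeR called 1 member. Without both it called 2, beside 3.67% of all genes. Within restricted livers 6 members were called (9.84%, beside 20.6% of all genes). Cyp2a5 had 2427 and 3160.1 CPM at 0 h, 1117, 1001 and 245 CPM at 6 h, 956, 2041 and 235 CPM at 14 h and 2837, 2527, 3017 and 2734 CPM at 22 h (adjusted p = 0.0139), high at 22 and 0 h and low between. Its neighbour Cyp2a4, a steroid 15α-hydroxylase, ran from 1295 and 919 CPM at 0 h to 146, 213 and 236 CPM at 6 h (adjusted p = 0.0075). Cyp2r1 was lowest at 0 h, at 7.78 and 6.19 CPM (adjusted p = 0.0152), and Cyp4f17 highest at 6 h (adjusted p = 0.00971). Cyp46a1 (adjusted p = 0.0457) and Cyp2u1 (adjusted p = 0.0273) were called at group means of at most 7 CPM. The count was 3 without CR_0h 1, 7 without the 4 libraries nearest to another diet, beside 26.7% of all genes, and 9 without all 6 named libraries, beside 27.4%.

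Within fasted livers 8 members were called between 6, 14 and 22 h (13.1%, beside 2.86% of all genes), and 5 of them were Cyp2c genes. Cyp2c54 had 616, 457 and 485 CPM at 6 h, 305, 366 and 294 CPM at 14 h and 86.6, 169 and 244 CPM at 22 h (adjusted p = 0.00361), with no overlap between the times. Cyp2c29, an epoxygenase, had 1736, 1729.8 and 1583 CPM, 1111, 1114 and 1077 CPM and 607, 515 and 695 CPM at these times (adjusted p = 0.0319), again in 3 separate steps. Cyp2c40 (adjusted p = 0.0127), Cyp2c44 (adjusted p = 0.0124) and Cyp2c55 (adjusted p = 0.0395) also had their highest mean at 6 h and their lowest at 22 h. So did Cyp4f17, with 19.3, 20.3 and 15.0, then 9.98, 12.6 and 14.6, then 8.91, 6.15 and 9.66 CPM (adjusted p = 0.0054), and Cyp4f14, with 276, 306 and 269, then 110.2, 141 and 135, then 37.9, 124 and 62.1 CPM (adjusted p = 0.00491). Cyp2r1 was highest at 6 h, at 13.02, 9.60 and 10.7 CPM (adjusted p = 0.0186). The count was 3 without F_6h 1, 5 without F_6h 3 and 4 without F_22h 1.

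Several abundant members were called in no comparison by edgeR with all libraries. Cyp2d26 kept to group means between 806 and 1325 TPM, Cyp2d10 between 536 and 841, Cyp2c37 between 599.8 and 1259, Cyp2f2 between 342 and 667, and Cyp2b9 between 219.8 and 411 TPM. Likewise without such a call were Cyp3a25, between 272 and 530.1, Cyp3a13, between 75.9 and 138, Cyp2j5, between 214 and 418, Cyp4v3, between 80.1 and 153, and Cyp4f13, between 40.3 and 60.9 TPM. The lower Cyp2j6, Cyp20a1 and Cyp3a59 had overall means of 21.6, 8.70 and 54.1 TPM. As a ratio of the highest to the lowest group, Cyp3a59 varied most of these, from 22.5 TPM in AL_6h to 112 TPM in CR_mm. DESeq2 called Cyp2c37 in restricted against fasted livers at 22 h and Cyp4v3 at 6 h, and the compared libraries alone gave a call on Cyp3a13 at 14 h and on Cyp3a59 at 6 and 14 h of fasting. Further calls came without the 4 or the 6 named libraries, on Cyp2b9, Cyp2c37, Cyp2d26, Cyp2j5, Cyp3a13, Cyp3a25 and Cyp3a59. A missing call does not show that a level was unchanged.

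The enzymes that serve P450s moved with fasting at 14 h. Of 15 genes for electron partners and haem, 10 fell and 2 rose (median log2 fold change -0.92, against -0.04 over all genes). Of all genes 12.7% were called lower and 11.8% higher there. The haem synthesis enzyme Alad (log2 -1.57 ± 0.22, adjusted p = 1.31e-05), the electron carriers Cyb5a (-1.12 ± 0.26) and Cyb5b (-1.18 ± 0.23), the cytochrome b5 reductase Cyb5r3 (-0.92 ± 0.23) and the haem-binding Pgrmc1 (-0.97 ± 0.19) were among those that fell, while Por itself (1.40 ± 0.49, adjusted p = 0.0356) and Cpox (1.00 ± 0.25) rose. Por stood at 1006 ± 424 CPM in fasted and 381 ± 162 CPM in AL livers (SD, n = 3 each). In restricted against fasted livers at 14 h 8 of the 15 were higher and 2 lower, beside 9.1% and 7.97% of all genes. The rate-limiting haem synthesis enzyme Alas1 was among the lower ones (log2 -2.15 ± 0.63, adjusted p = 0.0172). At 22 h of fasting 4 fell and none rose against AL, beside 5.4% of all genes lower and 6.06% higher.

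Of 11 tested xenobiotic receptors and partners, none was called in fasted against AL livers at 6 or 22 h. Of all genes 2.34% and 11.5% were called at these times. Nr1i3, the receptor of Cyp2b10, was not called at 14 h (log2 -0.01 ± 0.34, adjusted p = 0.986). After the missed meal Nr1i2, the receptor of Cyp3a11, was higher (log2 0.82 ± 0.24, adjusted p = 0.0209), as was the Ahr target Tiparp (0.79 ± 0.26), and Ahr itself was higher in restricted than in fasted livers at 6 h (1.01 ± 0.25, adjusted p = 0.0122). Of 11 hepatocyte transcription factors, Hnf4a rose (0.90 ± 0.28) and Foxa2 fell (-0.82 ± 0.23) at 14 h of fasting, beside 11.8% and 12.7% of all genes. Of 10 growth hormone and sex-dependent regulators, the receptor Ghr (-1.20 ± 0.24) and the Stat5 target Cish (-1.60 ± 0.55) fell at 14 h of fasting. The oestrogen receptor Esr1 fell at 6 h of fasting (-1.95 ± 0.42) and after the missed meal (-1.85 ± 0.39). Of all genes, 12.7% were called lower at 14 h, 1.13% at 6 h and 6.13% after the missed meal. The 4 genes Dbp, Tef, Hlf and Nfil3, clock-driven factors known to act on P450 genes, were called in no pair of groups. Over the pairs 0 to 24.5% of all genes were called. Dbp and Tef were called over time within restricted and within fasted livers and Nfil3 within fasted livers. Of all genes 20.6% were called over time within restricted and 2.86% within fasted livers.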

How the data were processed

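Polyadenylated RNA from 30 mg of liver was sequenced as 150 bp paired reads with a kit that does not mark strand, per the labels' protocols, so antisense overlap cannot be resolved. Per the labels, reads were mapped with Bowtie (up to 2 mismatches) to protein-coding genes of Ensembl GRCm38, and the authors deposited expected counts from RSEM 1.2.3. The second deposited table holds TPM that the authors rescaled between libraries with EBSeq against a batch that is not named, and it is used here as a signal for levels between genes. Mapping to protein-coding genes alone means that reads of P450 pseudogenes could be given to their coding relatives.

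Expected counts were rounded and tested with edgeR 4.0.16 in R 4.3.3 (quasi-likelihood F test, TMM scaling). One model with a term for each of 13 groups was fitted to 38 libraries and 13786 genes that passed filterByExpr. Benjamini-Hochberg adjustment ran over all genes within each comparison with a threshold of 0.05, and every adjusted p is from this test unless another tool is named. Groups were compared in 11 pairs and in 5 tests over time. CPM values use the TMM-scaled totals, and an SD is over the libraries of a group. Where a fold change has an error, it is the standard error. Fits were tested on simulated data. The members and the lists were chosen with earlier results of these data known. Named members were, per pair, up to 6 in each direction with the largest fold change among those called with at least 5 CPM in 1 of the groups, the 6 of smallest p in each test over time, and 47 fixed symbols. Coordinates and lengths are from GENCODE vM21, matched by Ensembl identifier for 21855 genes and all 83 members, and promoters from RefSeq on GRCm38.p6. Gene names that a spreadsheet had turned into dates stood in 26 rows, none of them a member.

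Replicate numbers are shared between groups. Deviations of same-numbered libraries had correlations across genes of 0.144, 0.2 and 0.15 between CR_mm and CR_fed. Between CR_22h and F_22h these were 0.171, 0.0296 and 0.161, and in no other comparison were all of them positive. A fit with the replicate as a block is given for the missed meal. These weak correlations were not tested, and the labels do not say that equal numbers mean a pair. Alternatives were DESeq2 1.42.0, its size factors, no filter on low counts, limma 3.58.1 on log2 of the rescaled TPM plus 1 or 0.1, removal of each library's trend with transcript length (lowess span 0.3), only the compared libraries, the block, and leaving out each library in turn. Leaving out the 6 named libraries, and the block in the 6 libraries of the missed meal, were added after seeing the data. The count of xenobiotic receptors and partners called at 14 h of fasting is not reported here.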

Additional observations from a re-analysis of the deposited data

Results flagged for a closer look

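Only the CR_22h group, with 4 libraries, was large enough to look for a library far from the others, and 47 members were checked there. In 7 of them the gap from 1 library to its nearest neighbour exceeded the critical share of the range, 0.829, while chance gives about 5% of such checks. CR_22h 3 was the high one for Cyp3a41b at 31.7 CPM (others 0.206 to 1.97), for Cyp3a44 at 40.9 CPM (others 3.82 to 8.94), for Cyp2c40 at 484 CPM (others 291 to 319), for Cyp2j5 at 535 CPM (others 243 to 279) and for Cyp2g1 at 10.2 CPM (others 4.69 to 5.10). The first 3 are female-predominant genes, and CR_22h 3 is also 1 of the 4 libraries nearest to another diet. CR_22h 4 was low for Cyp2d40 at 29.1 CPM (others 56.6 to 62.0), and CR_22h 2 was low for Cyp4b1 at 14.1 CPM (others 17.9 to 18.4).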

How the results depend on the processing

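No call reversed under any alternative. Of the 70 calls in pairs, DESeq2 kept 70, no filter on low counts 69, DESeq2's size factors 68, the replicate block 65, removal of the length trend 56, limma without a minimum level 55 and the compared libraries alone 54, and limma on the rescaled TPM kept 62 of 66 with a pseudocount of 1 and 61 of 66 with 0.1. When each library was left out, 313 of 432 recomputed calls held, and 33 of the 70 calls held in every such fit. With the share of all genes called in parentheses, DESeq2 called 5 members in F_6h against AL_6h (4.73%), 1 in CR_6h against AL_6h (0.0653%), 7 in CR_22h against AL_22h (8.33%), 17 in CR_22h against F_22h (12.7%), 1 over AL time (1.49%), 10 over CR time (25.6%), 15 over F time (5.66%) and 1 for the fasting effect over time (0.475%). With the compared libraries alone the counts were 10 for F_6h against AL_6h (6.27%), 1 for CR_6h against AL_6h (0.058%) and 7 for CR_22h against F_22h (1.64%). Limma gave 5 for F_6h against AL_6h with a pseudocount of 1, and without a minimum level 2 for CR_22h against AL_22h and 4 for CR_6h against F_6h. The replicate block changed the count to 5 for F_6h against AL_6h and to 2 for CR_22h against AL_22h. Since number 4 exists only in CR_22h, that fit drops this library's information. In neither of these comparisons did all same-numbered libraries deviate together. In the 6 libraries of the missed meal the block raised the count to 13.

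Chosen after seeing the data, leaving out the 4 libraries nearest to another diet gave 5, 3, 8 and 14 members for CR against AL at 0, 6, 14 and 22 h (2.92%, 0.551%, 4.27% and 14.6%). Without all 6 the counts were 4, 10 and 14 at 6, 14 and 22 h (0.791%, 4.97% and 11.9%). They were 19 for F_22h against AL_22h (14%) and 17 for CR_22h against F_22h (14.9%). Counts that use AL_0h are not given for this fit, which leaves AL_0h 1 alone in its group. Over AL time 2 members were called (3.67%) without the 2 of a deviant clock. These counts come from fewer libraries, and leaving out the 4 widens the gap between diets by construction. The cause of the changes in count was not tested. Leaving out each library in turn gave 2 to 3 members for F_6h, 14 to 20 for F_14h and 8 to 13 for F_22h against AL. It gave 0 to 1 for CR_0h, 0 to 0 for CR_6h and CR_14h and 0 to 11 for CR_22h against AL, 3 to 7, 6 to 8 and 5 to 12 for CR against F at 6, 14 and 22 h and 3 to 7 for the missed meal. Over time it gave 0 to 1 for AL, 3 to 8 for CR and 3 to 9 for F, 0 to 1 for the fasting effect and 0 to 0 for the CR effect. Shares of all genes called are not given for the leave-one-out fits, so these ranges describe only how stable the counts were. A library's deviation from the mean went with transcript length at a rho of 0.129 to 0.383 in fasted libraries, -0.446 to -0.0308 in AL_14h and AL_22h and -0.423 to -0.0576 in CR_fed and CR_mm, so this trend moves with the fasting comparisons at 14 and 22 h. Members have shorter transcripts (median 1928 bases) than all genes (2802). Besides the calls at 14 and 22 h of fasting named in the report, removing the trend ended those on Cyp2c50 in CR_6h, Cyp2d40 in CR_14h and Cyp2c54, Cyp2c68 and Cyp2g1 in CR_22h against fasted livers. Depth limits the 22 untested members.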
